A study of Mus musculus with 4 samples.

Results

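The 8 genes described here are the 6 trypsinogens Prss1, Prss2, Prss3, Try4, Try5 and Try10, the chymotrypsin C gene Ctrc, and the trypsin inhibitor Spink1. They were taken by name from the feature lists, 8 of 32285 genes kept, and all 8 were detected in each section and passed the filter on low counts, as did 20053 genes in all. In all, 4 formalin-fixed sections of mouse pancreas were measured with the CytAssist Visium spatial assay, in which pairs of probes bind each transcript in the tissue and captured molecules are counted by unique molecular identifiers (UMIs) in barcoded spots. A spot holds several cells or parts of cells. The comparison asks how the injured pancreas differs when the histone methyltransferase Ehmt2 (also named G9a) has been deleted from its epithelium. Of the sections, 2 were labelled WT (PDX1-Cre with intact Ehmt2) and 2 were labelled KO (EHMT2 knockout with the same Cre). All the mice therefore carried the Cre, which the Pdx1 promoter drives in the pancreatic epithelium from the embryo on, so that stroma and immune cells kept the gene. All were of the C57Bl/6 strain, 4 weeks old by the study's methods, and all were fasted for 12 h and then received 8 hourly injections of caerulein at 50 μg/kg, with collection 18 h after the first. No saline-treated section was analysed here, so the values compare genotypes within acute pancreatitis and give no effect of caerulein.

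Trypsinogens are the inactive precursors of trypsin and are made by acinar cells, stored in zymogen granules and secreted into the gut, where enteropeptidase removes a short peptide and trypsin then activates the other zymogens. In pancreatitis some trypsinogen is activated inside the acinar cell, where cathepsin B can cleave it, and caerulein, an analogue of cholecystokinin, is widely used to provoke this in mice. Chymotrypsin C, the product of Ctrc, can degrade trypsinogen and trypsin, and the small protein Spink1 binds and blocks trypsin, so both can restrain the enzyme. Only transcripts were counted here, and whether these mice made working chymotrypsin C was not measured. In the mouse the trypsinogens are a tandem family, and several copies are expressed side by side in the same acinar cells.

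The 6 trypsinogen genes lie on chromosome 6 of GRCm38, the build of the files, and are protein-coding. From the lower coordinate upward they are Try4 (chr6:41302269-41305532, plus strand), Try5 (chr6:41311233-41316841, minus), Try10 (chr6:41354105-41357914, plus), Prss3 (chr6:41373814-41377678, minus), Prss1 (chr6:41458932-41463786, plus) and Prss2 (chr6:41521787-41525079, plus). Between Prss3 and Prss1 lie 2 further trypsinogen-like genes, Gm5771 (chr6:41392356-41397230, plus) and Gm10334 (chr6:41442216-41446145, minus). These are GENCODE coordinates. The gene of a cationic trypsinogen, 2210010C04Rik (chr6:41030268-41035509, minus), lies on the same chromosome. Ctrc lies on chromosome 4 (chr4:141814962-141846359, minus), and Spink1 on another chromosome.

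Sequences just upstream of some of these genes are shown because Prss1, Gm5771, Prss3 and Gm10334 fall into 2 sequence pairs. As shares of digestive enzyme UMIs, these genes were higher in the sections labelled KO. So were Try10 and 1810009J06Rik, both with low values, which are not among the genes shown. Measured against all genes, the direction of Prss3 and Gm10334 changed with the processing. Each line gives 100 bases of GRCm38.p6 from RefSeq that end with the TATA box (TATAAA) nearest the gene start, 5′ to 3′ on the gene's strand. Capitals mark that box and each CANNTG, the E-box core bound by basic helix-loop-helix factors such as the acinar factor Ptf1a. Prss1, Gm5771, Prss3 and Gm10334 come first, then Prss2 and Try4, which were lower in the sections labelled KO in CPM (UMIs scaled to the same total in each section). The windows are chr6:41458805-41458904 (Prss1, plus), chr6:41392251-41392350 (Gm5771, plus), chr6:41377636-41377735 (Prss3, minus), chr6:41446103-41446202 (Gm10334, minus), chr6:41521666-41521765 (Prss2, plus) and chr6:41302147-41302246 (Try4, plus). They were placed by RefSeq's gene starts, and those of Prss3 and Gm10334 reach into the GENCODE genes given above, which start further upstream.
Prss1: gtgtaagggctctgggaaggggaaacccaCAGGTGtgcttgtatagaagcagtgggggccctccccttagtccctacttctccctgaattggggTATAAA
Gm5771: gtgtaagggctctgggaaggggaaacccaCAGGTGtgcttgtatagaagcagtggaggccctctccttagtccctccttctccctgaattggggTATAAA
Prss3: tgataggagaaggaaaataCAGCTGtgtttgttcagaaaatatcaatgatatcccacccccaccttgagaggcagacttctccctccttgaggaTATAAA
Gm10334: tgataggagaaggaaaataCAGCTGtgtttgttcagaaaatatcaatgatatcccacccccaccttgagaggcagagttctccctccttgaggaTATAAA
Prss2: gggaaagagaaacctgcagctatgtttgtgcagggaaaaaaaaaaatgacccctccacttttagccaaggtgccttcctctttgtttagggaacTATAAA
Try4: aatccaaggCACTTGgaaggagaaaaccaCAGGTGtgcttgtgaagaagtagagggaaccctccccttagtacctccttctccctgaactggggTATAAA
Without gaps, Prss1 and Gm5771 were identical at 97 of the 100 bases and Prss3 and Gm10334 at 99, whereas Prss1 and Prss3 were identical at 33. Prss1 and Try4 shared 81 bases, including the same CAGGTG, although Prss1 was higher and Try4 lower in CPM in the sections labelled KO. Prss2 held no CANNTG in this window. Over the 250 bases upstream of each gene start, CANNTG on either strand (its reverse complement has the same form) occurred in 66.2% of all 32851 RefSeq promoters, CAGGTG or its reverse CACCTG, which are among the CANNTG matches, in 17.2%, and TATAAA or its reverse in 12.4%. An entry was found for 7 of the 9 trypsinogen genes searched, and each of the 7 held all 3. A further motif searched, GGGAAA or its reverse TTTCCC, occurred in 21.9% of all promoters. Prss1, Prss2 and Gm5771 held it, and Prss3, Try4, Gm10334 and 2210010C04Rik did not. A match marks letters only, not a bound site.

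The transcripts are close to each other as well, which limits how far their counts can be separated. Across the 15 pairs of the 6 trypsinogens, aligned GENCODE transcripts were identical at 76.7% (Prss2 and Prss3) to 97.1% (Try4 and Try5) of positions. A stretch of 50 bases was used as a measure of shared sequence. Of the 773 such stretches of Prss3, 65.1% occurred unchanged in Gm10334, and of the 756 of Prss1, 38.9% occurred in Gm5771, 22.6% in Prss3 and 23.7% in Gm10334. Prss2 stood apart, since 7.83% of its stretches occurred in any other trypsinogen transcript, 14 of them in Prss1 and 0 in Prss3. Of the stretches of Try4, 45.9% occurred in Try5. The probe sequences were not used here, so values of Prss1, Prss3, Gm5771 and Gm10334 are uncertain as to which of these genes each molecule came from, and so are those of Try4 against Try5.

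Spots with at least 500 UMIs were used, 6144 and 7871 in the sections labelled WT and 6483 and 6462 in those labelled KO. They held 43784930 UMIs in the section labelled WT replicate 1 and 6643747 to 7938386 in the other 3, with medians of 6327.5 UMIs per spot in that section and 874 to 1113 in the others. Of all UMIs, 62.8% and 51.9% were from digestive enzymes in the sections labelled WT, against 21.9% and 21.2% in those labelled KO, so CPM moves with the enzymes themselves. Each member is therefore given in CPM of its section and also per 100 UMIs of all digestive enzymes, a list of 35 genes of which 30 had UMIs. In summed sections, fewer acinar cells and less RNA per acinar cell cannot be told apart. The acinar markers summed to 395155 and 330155 CPM against 156572 and 150716. In both sections labelled KO, 5 of 6 duct, 5 of 5 fibroblast and 5 of 5 macrophage markers were higher in CPM. So were 4 of 4 neutrophil, 5 of 5 lymphoid, 4 of 4 fat, 3 of 5 blood and 2 of 6 islet markers. By the same measure 91.8% of all genes tested were higher, so the high counts are no result about the cell types. The macrophage list summed to 49.8 and 76.9 CPM against 474 and 339, and the fibroblast list to 414 and 530 against 1987 and 1884. No marker of the duct, fibroblast, macrophage, neutrophil and lymphoid lists was at 0 in all sections. The part of these cell types in the results was not tested. The barcodes of the assay mark positions, and 13898 of 14336 were listed in all 4 sections. Ehmt2 itself had 19.8 and 3.95 CPM in the sections labelled WT and 10.1 and 12.1 in those labelled KO. A median olfactory receptor gene had 0.274 and 5.10 CPM against 8.58 and 12.7. Ehmt2 thus stood clearly above that level only in the section labelled WT replicate 1 and lay near it in the others. One section labelled WT lay below both labelled KO, and the Ehmt2 count does not check the labels. The 4 Y-linked genes counted summed to 0.0457 and 0 CPM in the sections labelled WT and 38.5 and 50.6 CPM in those labelled KO, so the sex of the mice and the genotype cannot be told apart. Each slide held 1 section of each genotype, and the capture area of the slide was the same for both sections of a genotype, so that area and genotype cannot be told apart either. With 2 sections against 2, the two-sided exact permutation test cannot give a p below 0.333.

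Across the 8 members, 3 were higher in both sections labelled KO than in both labelled WT in CPM, 4 were lower and 1 overlapped. Of all genes tested, 91.8% were higher by this measure and 0.778% lower. Per 100 digestive enzyme UMIs, 3 members were higher, 3 were lower and 2 overlapped, against 40% and 43.3% of the 30 enzyme genes. The members' counts in each direction were near those of the enzymes in general on this scale, so they are no result about the members. The sizes of the differences follow. Probes may differ between genes and similar genes may share them, so levels are compared for 1 gene between sections. Where genes are set beside each other as shares, the shares describe counted UMIs and not relative amounts of RNA.

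**Figure D1:**
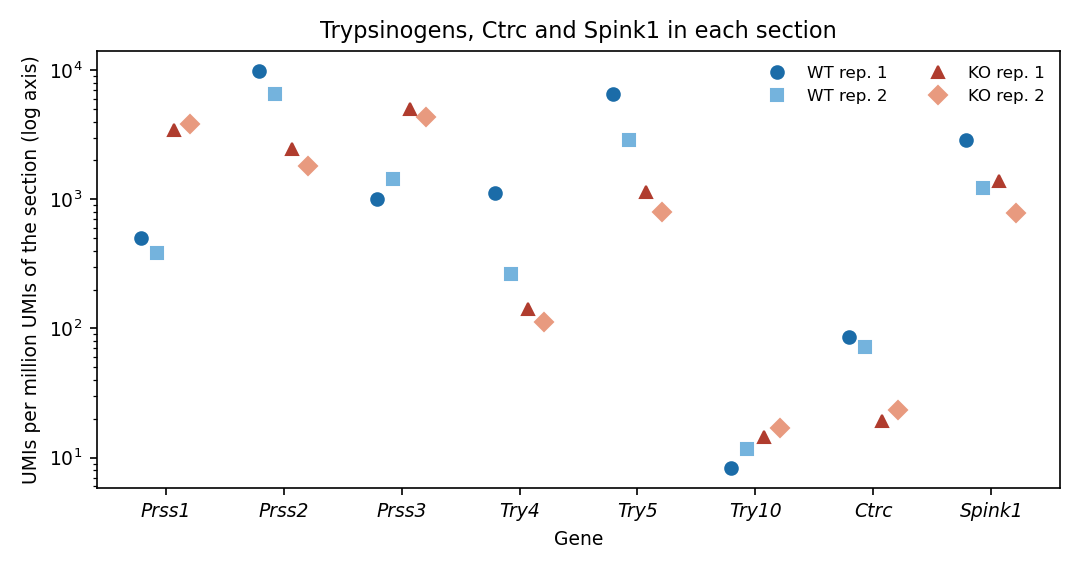
CPM in each section (log axis) for the 6 trypsinogens, Ctrc and Spink1, with 1 point per section and the sections named by genotype label and replicate. Prss1 and Prss3 lay higher in both sections labelled KO, Prss2, Try4, Try5 and Ctrc lay lower, and Spink1 overlapped.

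Prss1 showed the largest ratio of the members between the genotypes on both scales. It had 499 and 385 CPM in the sections labelled WT and 3473 and 3856 CPM in those labelled KO, an 8.29-fold difference of the means. Both sections labelled KO stood far above both labelled WT, and the 2 sections of a genotype lay close together. Per 100 digestive enzyme UMIs it was 0.0795 and 0.0741 against 1.58 and 1.82, with means of 0.0768 ± 0.00383 and 1.70 ± 0.164 (SD, n = 2 each), a 22.1-fold difference (two-sided exact permutation test, p = 0.333, the smallest possible). The ratio was 19.9 on the first slide and 24.5 on the second. Among the 17 reference enzymes with UMIs, which hold no trypsinogen, the largest such ratio was 4.73, of the amylase gene Amy2a1, whose share was only 0.0140 and 0.0225 per 100 in the sections labelled KO. The chymotrypsinogen gene Ctrb1 was at 56.4 and 57.4 against 66.4 and 66.4 per 100.

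Prss3 was also higher in CPM and as a share of the enzymes. It had 1011 and 1439.5 CPM in the sections labelled WT and 5012 and 4321 CPM in those labelled KO. The groups did not overlap, though the sections labelled WT differed from each other more than for Prss1. In CPM, 91.8% of all genes tested were likewise higher. With library sizes and no TMM factors, the log2 fold change was 1.93 for Prss3 and 1.69 for the median gene. Per 100 enzyme UMIs it was 0.161 and 0.277 against 2.29 and 2.04, a 9.86-fold difference of the means, with 14.2 on the first slide and 7.34 on the second (exact permutation test, p = 0.333).

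The 2 trypsinogen-like genes that lie between Prss3 and Prss1 went the same way. Gm10334 had 593 and 224 CPM in the sections labelled WT and 2336 and 2720.5 CPM in those labelled KO. Gm5771 had 38.5 and 43.5 CPM against 259.6 and 229. Per 100 enzyme UMIs the differences of the means were 17.1-fold for Gm10334 and 15.6-fold for Gm5771. Prss3, Gm5771, Gm10334 and Prss1 are thus neighbours among the trypsinogen genes compared here. They also share sequence with each other, so they are not 4 separate measurements. The ratio by the means also exceeded 1 for 1810009J06Rik (8.01) and Try10 (4.10), both low in CPM, and for Gm4744 (1.43) and Gm2663 (1.02), whose groups overlapped.

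**Figure D2:**
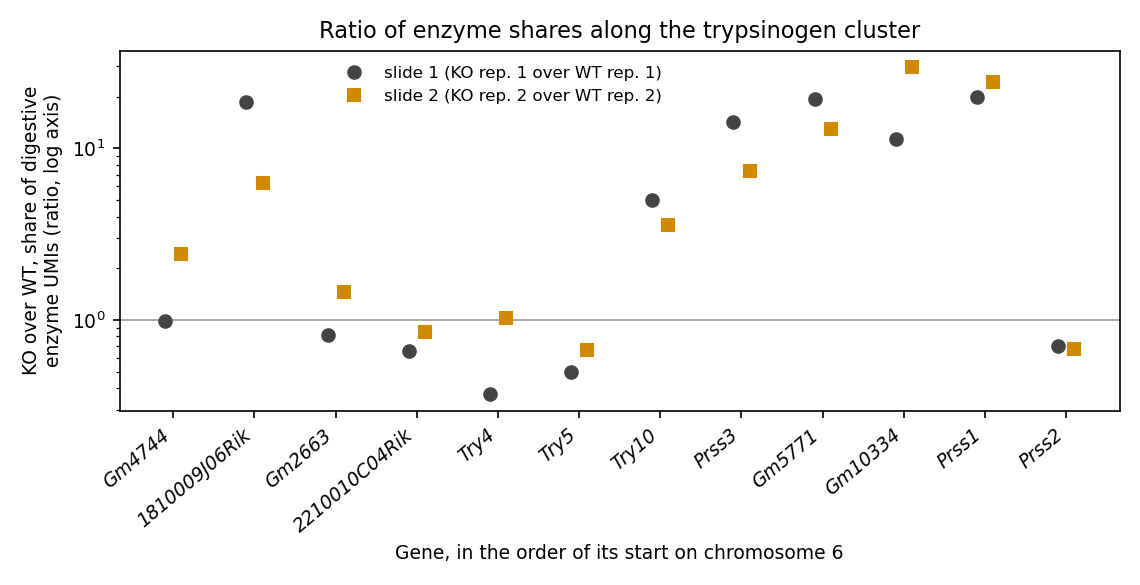
Ratio of the share of digestive enzyme UMIs, KO over WT by label (log axis), for 12 trypsinogen and trypsinogen-like genes in their order along chromosome 6, with 1 point for each slide. Prss3, Gm5771, Gm10334 and Prss1, which are neighbours among these genes, lay between 7.34 and 29.7. Prss2, the next of these genes after Prss1, lay at 0.708 and 0.675.

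Prss2, an anionic trypsinogen, lay the other way. It had 9924 and 6521 CPM in the sections labelled WT and 2454 and 1801 CPM in those labelled KO, 3.86-fold lower by the means. Per 100 enzyme UMIs the values were 1.58 and 1.26 against 1.12 and 0.848, without overlap, and the ratio of WT over KO was 1.44 (exact permutation test, p = 0.333). The difference within the enzymes was thus smaller than in CPM. On the slides taken singly the ratio was 1.41 and 1.48. Shares of 9 of the 17 reference enzymes were also lower in both sections labelled KO, and those of 6 were higher. The ratio of KO over WT was 0.694 for Prss2 and ran from 0.295 (Cela2a) to 0.767 (Cpa1) over the 9 lower ones. A difference of this size is thus not particular to Prss2.

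Try5, another anionic trypsinogen, lay the same way as Prss2. It had 6559 and 2891 CPM against 1141 and 791, and 1.05 and 0.557 against 0.520 and 0.373 per 100 enzyme UMIs. The gap between the lowest section labelled WT and the highest labelled KO was small on the second scale. Try4 had 1110.1 and 265 CPM against 142 and 112, but per 100 enzyme UMIs it was 0.177 and 0.0510 against 0.0650 and 0.0526, so the groups overlapped and the section labelled WT replicate 1 alone stood out. The cationic trypsinogen 2210010C04Rik, which shares no stretch of 50 bases with the other genes compared, had 28472 and 19449 CPM against 6506 and 6747, and 4.54 and 3.75 against 2.97 and 3.18 per 100 enzyme UMIs. Gm2663 had 3604 and 1445 CPM against 1027 and 854, and its enzyme shares overlapped. Per 100 enzyme UMIs the ratio of KO over WT was 0.557 for Try5 and 0.742 for 2210010C04Rik. Both lay within the range of the reference enzymes that were lower.

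Try10 was low. It had 8.31 and 11.6 CPM in the sections labelled WT and 14.4 and 17.0 CPM in those labelled KO, beside a median olfactory receptor gene at 0.274, 5.10, 8.58 and 12.7 CPM in the same order. Gm4744 (18.0, 6.63, 6.17 and 6.55 CPM) and 1810009J06Rik (1.53, 7.90, 9.93 and 20.4 CPM) were as low. In the section labelled WT replicate 1, Try10 and Gm4744 lay well above that median, with 364 and 786 UMIs, and in the other sections they were closer to it. No direction is read from these 3 genes.

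The makeup of the trypsinogen UMIs accordingly differed between the sections labelled WT and those labelled KO. In the sections labelled WT, Prss2 took 51.9% and 56.6% of the UMIs of the 6 genes and Try5 34.3% and 25.1%, while Prss3 took 5.29% and 12.5% and Prss1 2.61% and 3.34%. In those labelled KO, Prss3 took 41.0% and 39.6% and Prss1 28.4% and 35.4%, while Prss2 took 20.1% and 16.5% and Try5 9.32% and 7.26%. Prss2 and Try5 supplied most of the UMIs of these 6 genes in one pair of sections, and Prss3 and Prss1 in the other. Each of these shares lay outside the range of the other genotype (exact permutation test, p = 0.333 for each). Among all 12 trypsinogen and trypsinogen-like genes, 2210010C04Rik took the largest part in every section. It took 54.9% and 59.5% in the sections labelled WT and 29.1% and 31.4% in those labelled KO. On that scale Prss2 took 19.1% and 19.9% against 11.0% and 8.39%. Prss3 took 1.95% and 4.40% against 22.4% and 20.1%, and Prss1 0.963% and 1.18% against 15.5% and 18.0%.

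**Figure D3:**
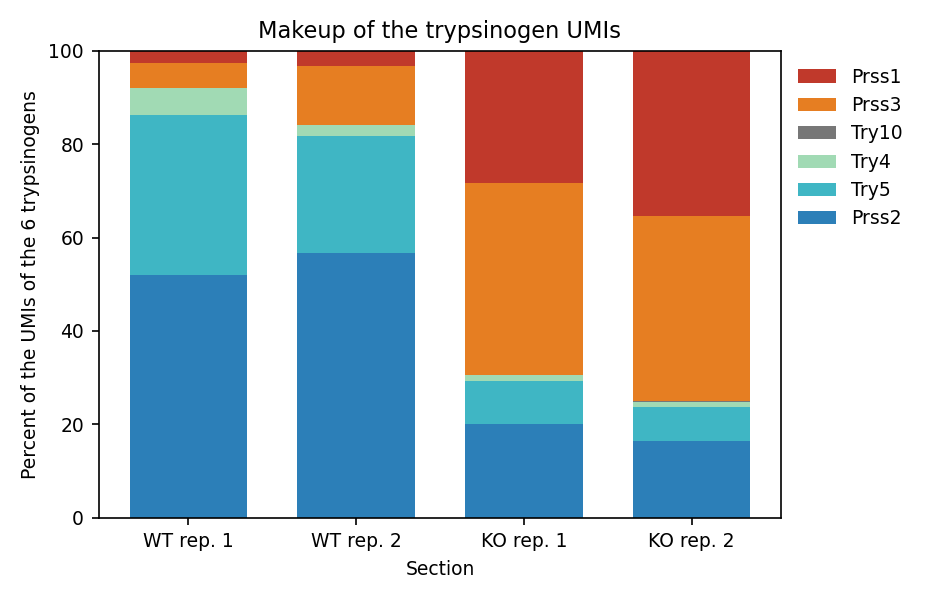
Percent of the UMIs of the 6 trypsinogens that each gene took in each section, stacked to 100%. Prss2 and Try5 filled most of the bars of the sections labelled WT, and Prss3 (41.0% and 39.6%) and Prss1 (28.4% and 35.4%) most of those labelled KO.

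The same difference was seen in single spots. In spots with at least 10 UMIs of Prss1, Prss2 and Prss3 together, the part of Prss1 plus Prss3 had a median of 13.2% over 5659 spots and 20.0% over 2727 spots in the sections labelled WT, and of 80.0% over 3070 spots and 83.3% over 2896 spots in those labelled KO. At least 50% was reached by 0.0530% and 3.89% of these spots in the sections labelled WT and by 97.8% and 98.4% in those labelled KO. Spots of a section are not replicates, and these shares describe 4 sections. Prss1 and Prss2, which share few unchanged stretches of 50 bases though their transcripts are 87.1% identical, differed in the same way. In spots with at least 10 UMIs of the pair, Prss1 had a median part of 4.55% and 4.17% in the sections labelled WT and of 61.1% and 70.0% in those labelled KO. Within Prss1 and Prss3 alone, Prss1 took 33.0% and 21.1% of their UMIs against 40.9% and 47.2%. Below an enzyme content of 50% the makeup was much the same at each content. How far RNA spread between spots adds to the counts of enzyme-poor spots was not tested. In spots where the reference enzymes were under 10%, 10 to 30% and 30 to 50% of UMIs, Prss1 took 26.7%, 28.6% and 28.8% of the 6 genes in the section labelled KO replicate 1 and 35.3%, 35.7% and 35.1% in replicate 2. In the section labelled WT replicate 2 the latter bins gave 3.62% and 3.09%, and its first bin held 51 trypsinogen UMIs in all.

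**Figure D4:**
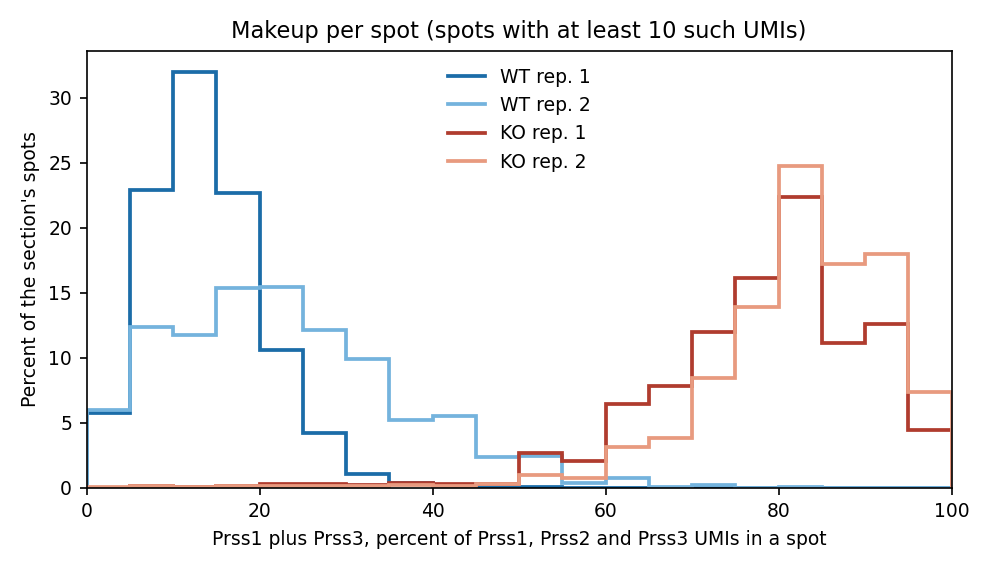
Histogram over spots of Prss1 plus Prss3 as a percent of the UMIs of Prss1, Prss2 and Prss3, in steps of 5%, for spots with at least 10 such UMIs, as a percent of the spots of each section. The 2 sections labelled WT peaked below 25% and the 2 labelled KO above 80%.

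A small set of spots in the sections labelled KO had another makeup. Reference enzymes made up 50% or more of the UMIs in 24 and 21 spots of these sections, against 5771 and 4031 spots in those labelled WT. In these KO spots Prss2 took 51.6% and 46.4% of the 6 trypsinogens, Try5 29.9% and 18.1%, Prss3 11.6% and 20.0% and Prss1 3.93% and 13.3%. In the section labelled KO replicate 2, a single spot of 6646 UMIs supplied most of the 64 Prss1 UMIs. Without it, a choice made after its values were seen, 19 Prss1 UMIs were left and Prss1 took 5.79%, Prss3 8.84% and Prss2 57.9%. In both sections the values lay nearer those of the sections labelled WT than those of the rest of their own sections, where Prss1 took 28.5% and 35.5%. The elastase gene Cela2a lay between. It was 8.74% and 8.35% of the reference enzyme UMIs in these spots, against 3.91% and 3.55% in the other spots of the same sections and 12.0% and 13.4% in the spots of the same enzyme content labelled WT. Spots with under 40% of Prss1 plus Prss3, counted as above, numbered 50 and 32 in the sections labelled KO, and their median reference enzyme content was 46.5% and 46.2%, against 25.0% and 23.8% in the other spots. The spots of 50% or more reference enzymes in the sections labelled KO rest on 535 and 481 trypsinogen UMIs, and no test over spots was made.

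Taken as a sum, the 6 trypsinogens had 19112 and 11512.5 CPM in the sections labelled WT and 12236.5 and 10897 CPM in those labelled KO, so the groups overlapped. Per 100 digestive enzyme UMIs the sum was 3.04 and 2.22 against 5.58 and 5.13, higher in both sections labelled KO and 2.04-fold by the means (2.63 ± 0.585 against 5.36 ± 0.317, SD, n = 2; exact permutation test, p = 0.333). Of the members, Prss1 and Prss3 had the larger shares in the sections labelled KO, and those of Prss2 and Try5 were smaller there. In the spots of 50% or more reference enzymes the sum was 3.04 and 2.26 against 2.65 and 2.29, and the groups overlapped (exact permutation test, p = 1). With the 6 trypsinogen-like genes outside the members added, the share was 8.26 and 6.30 against 10.2 and 10.1 per 100. In the spots of 50% or more reference enzymes this share was the other way, 8.25 and 6.39 against 6.29 and 6.23.

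Ctrc transcripts were sparse and lower in the sections labelled KO, which gives no measure of the protein or its activity. Ctrc had 3737 and 568 UMIs, or 85.3 and 72.4 CPM, in the sections labelled WT. In those labelled KO it had 127 and 185 UMIs, or 19.1 and 23.3 CPM, 3.72-fold lower by the means. The sections of each genotype lay close together. Per 100 digestive enzyme UMIs it was 0.0136 (95% Clopper-Pearson interval 0.0132 to 0.0140) and 0.0139 (0.0128 to 0.0151) against 0.00872 (0.00727 to 0.0104) and 0.0110 (0.00945 to 0.0127). These intervals cover counting error only, and they did not overlap between the genotypes. The means were 0.0138 ± 0.000247 and 0.00985 ± 0.00160 (SD, n = 2), with WT 1.40-fold above KO (exact permutation test, p = 0.333). The difference per enzyme UMI was thus smaller than in CPM. Its ratio of KO over WT, 0.715, was close to that of the reference enzyme Cel (0.716). In the sections labelled KO, Ctrc lay closer to a median olfactory receptor gene (8.58 and 12.7 CPM) than in those labelled WT (0.274 and 5.10 CPM). The part of background in the Ctrc counts was not tested. Per 100 UMIs of the 6 trypsinogens Ctrc was 0.447 and 0.629 against 0.156 and 0.214.

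Spink1, the trypsin inhibitor, did not separate the genotypes. It had 2887 and 1215 CPM in the sections labelled WT and 1376 and 777 CPM in those labelled KO. The section labelled WT replicate 2 lay below the one labelled KO replicate 1. Per 100 digestive enzyme UMIs it was 0.460 and 0.234 against 0.628 and 0.366, with means of 0.347 ± 0.160 and 0.497 ± 0.185 (SD, n = 2; exact permutation test, p = 0.667). Per 100 trypsinogen UMIs, counted over the member trypsinogens only, it was 15.1 and 10.55 against 11.2 and 7.13 (exact permutation test, p = 0.667). Both sections of the first slide lay above both of the second in CPM and in both ratios. Within each slide Spink1 per 100 enzyme UMIs was higher in the section labelled KO, 1.37-fold and 1.57-fold. Per 100 UMIs of the member trypsinogens it was lower there. That denominator leaves out 2210010C04Rik, which is not a member. Of all trypsinogen and trypsinogen-like UMIs, 2210010C04Rik took 54.9% and 59.5% in the sections labelled WT and 29.1% and 31.4% in those labelled KO. The lower Spink1 ratio within each slide thus holds for the member trypsinogens only. All 12 of these genes summed to 8.26 and 6.30 per 100 digestive enzyme UMIs, against 10.2 and 10.1. The ratio of Spink1 to that sum was not tested.

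**Figure D5:**
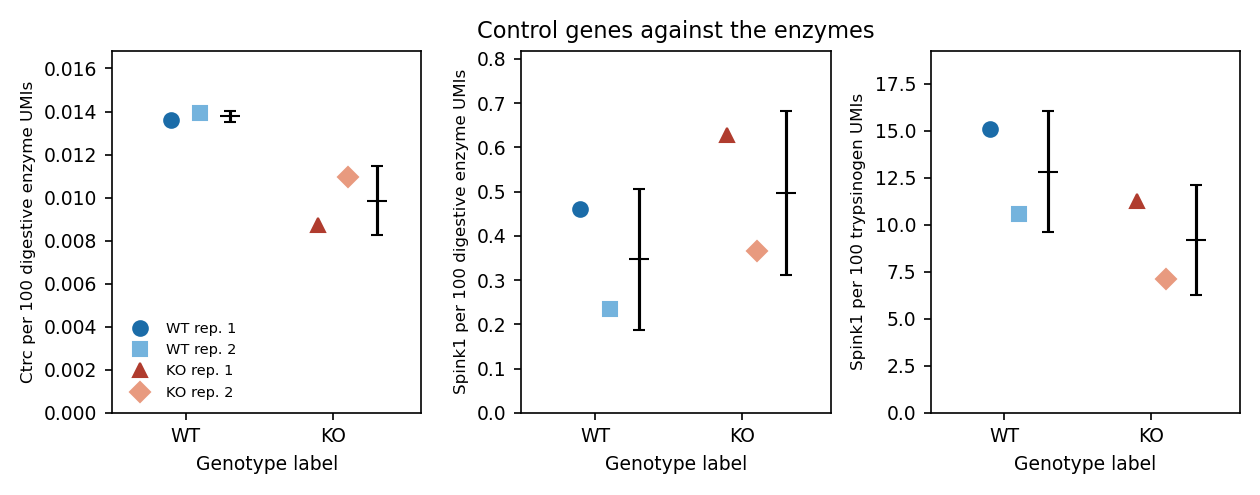
Ctrc per 100 digestive enzyme UMIs, Spink1 per 100 digestive enzyme UMIs and Spink1 per 100 trypsinogen UMIs, with 1 point per section and the mean with its SD (n = 2) beside each genotype. Ctrc separated the labels, with 0.0136 and 0.0139 above 0.00872 and 0.0110, and both Spink1 ratios overlapped.

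Across all genes the members did not pass the test that treats each section as 1 replicate. With edgeR's quasi-likelihood test on 20053 genes and Benjamini-Hochberg adjustment, 0.0549% of genes were called higher and 0.0549% lower in the sections labelled KO, and 0 of the 8 members were called. At an unadjusted p under 0.05, 5.28% of all genes and 5 of the 8 members passed, all 5 with lower values (Prss2, Try4, Try5, Ctrc and Spink1). DESeq2 called these same 5 and no other member, and called 5.67% of the 4971 genes with an adjusted p lower and 0.221% higher. Try10 had no adjusted p there. The closest was Ctrc, with a log2 fold change of −4.07 (SE 1.11, edgeR adjusted p = 0.116). It was called with library sizes in place of TMM factors (−1.89, edgeR adjusted p = 0.0366), where 0.0598% of genes were called lower and 1.93% higher, and also without WT replicate 1 (−2.74) or WT replicate 2 (−4.88). Try4 too was called without WT replicate 1 (edgeR adjusted p = 0.0186), where 0.801% of genes were called lower and 1.08% higher. Without WT replicate 2, where 36.3% of genes were called lower and 46.5% higher, Prss2, Try4, Try5, Try10, Ctrc and Spink1 were called lower. Prss1 had a log2 fold change of 0.85 (SE 1.36, edgeR adjusted p = 0.863) and Prss3 of −0.01 (SE 1.45, edgeR adjusted p = 0.997). These values depend on the scaling. TMM factors ran from 0.288 to 2.13 and the median gene was at 0.25, whereas without them the median gene was at 1.69, Prss1 at 3.05 (edgeR adjusted p = 0.0420) and Prss3 at 1.93. Relative to the median gene Prss1 was then at 0.60 and 1.36 and Prss3 at −0.26 and 0.23. The direction of Prss3 among all genes thus turned with the scaling, and that of Prss1 turned without WT replicate 2, to −0.50. The share of Prss3 in the enzyme UMIs is scaled in another way, by the enzyme total, which itself differed between the genotypes. The median over the 8 members was −3.67. Enzyme genes outside the members were low by the same measure, among them Ctrb1 (−3.35), Cela2a (−5.29), Cpa1 (−4.01) and 2210010C04Rik (−4.09). The trypsinogen-like genes Gm5771 (0.54), Gm10334 (0.21) and 1810009J06Rik (0.19) were positive. DESeq2 called the reference enzymes Ctrb1 and Cela2a lower as well. Low values of this size are therefore not particular to the members. Outside the members Gm4744, low in CPM, was the only trypsinogen-like gene called (−3.37, SE 0.78, edgeR adjusted p = 0.0191), a call lost under 8 of 14 alternatives, among them without WT replicate 1 (−1.02, edgeR adjusted p = 0.555), KO replicate 1 (−3.49) or KO replicate 2 (−3.25). The 22 calls over all genes became 379 without WT replicate 1, 16653 without WT replicate 2, 2 without KO replicate 1 and 0 without KO replicate 2 (18 at an unadjusted p under 0.05).

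The wider trypsin pathway was read from a list of 28 genes, of which 25 were tested and 0 were called in either direction. In CPM, 16 of the 25 were higher in both sections labelled KO and 5 were lower (Ctsl, Spint2, Cpa1, Cel and Pnlip), against 91.8% and 0.778% of all genes. Values below are log2 fold changes from edgeR unless given as CPM, beside a median gene at 0.25, and none passed.

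Of the proteases that act on trypsinogen, Ctsb, whose product cathepsin B can activate it, had 391 and 269 CPM in the sections labelled WT and 1028 and 635 in those labelled KO. Ctsl, whose product cathepsin L can inactivate it, was at 4503 and 5402 CPM against 2400.5 and 2233, and the cathepsin gene Ctsd was at 194 and 154 CPM against 454 and 282. With TMM factors the log2 fold changes were negative for Ctsb (−0.86, SE 1.22), Ctsl (−3.11, SE 1.77) and Ctsd (−1.06, SE 1.13), so the direction of Ctsb and Ctsd turned with the scaling. Enteropeptidase (Tmprss15), an enzyme of the duodenum, had 0 UMIs in all sections.

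Of 13 listed protease inhibitors 11 were tested, with a median log2 fold change of −1.12. The highest were Serpina1b (0.81, SE 1.39) and Serpina1e (0.48, SE 1.16), near-identical copies of the alpha-1-antitrypsin family whose counts cannot be separated with confidence and which lay near the level of olfactory receptor genes (at most 14.7 CPM). The lowest were Serpinb1a, an elastase inhibitor of the cytosol (−2.88, SE 1.23), and Spint2, a membrane-bound Kunitz inhibitor (−2.57, SE 1.38). Of the receptors, the protease-activated receptors F2rl1 (0.77, SE 1.25) and F2r (0.77, SE 0.69) and the muscarinic receptor Chrm3 (0.55, SE 0.87) had positive values. F2rl1 was at no more than 11.3 CPM and Chrm3 at no more than 21.0 CPM in any section, not far from the level of olfactory receptor genes. Cckar, the cholecystokinin receptor on which caerulein acts, stood at −3.03 (SE 0.85, edgeR adjusted p = 0.137), with 24.6 and 8.28 CPM in the sections labelled WT and 11.0 and 10.8 in those labelled KO, so that the groups overlapped in CPM and the section labelled WT replicate 1 alone was high. Of the other genes tied to the risk of pancreatitis, the tight junction gene Cldn2 (1.19, SE 0.68) and the calcium-sensing receptor Casr (0.78, SE 1.02) were highest. Casr was at no more than 16.9 CPM in any section, near the level of olfactory receptor genes. The lipase genes Pnlip (−5.31, SE 1.92) and Cel (−4.08, SE 2.21) were lowest.

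Across spots thinned to 500 UMIs, the genes whose levels ran most like the trypsinogen sum were other acinar genes. Likeness was the lowest over the 4 sections of Pearson's r across 6144 to 7871 spots, among 2785 genes, and is a description only, since spots of a section share their library. Cpa1, a carboxypeptidase, had r of 0.325 to 0.524 over the sections, 2210010C04Rik 0.316 to 0.526, the regenerating protein Reg1 0.228 to 0.583, Cela2a 0.211 to 0.532 and the lipase Cel 0.181 to 0.466. For Ctrc the top 5 genes (Cela2a, Cela1, Reg1, Ctrl and Txndc11) had r of at most 0.0573 in any section, and at its sparse counts no pattern is read. Spink1 was not sparse, and its top 5 genes (Reg1, 2210010C04Rik, Dmbt1, Cpa1 and Gm2663) had r of at most 0.248. The first of them, Reg1, had r of 0.0473 and 0.0871 in the sections labelled WT and 0.248 and 0.224 in those labelled KO. These r were low, and no pattern is read from them.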

How the data were processed

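The authors deposited raw UMI counts per feature and spot for each section, made with Space Ranger 2.0.1 on the mm10 reference and a mouse whole-transcriptome probe set, and the deposited counts carry no normalization. Counts of features marked deprecated (304 of 32589) were left out. The normalized and clustered values of the study were not used here. Counts were summed per section over spots with at least 500 UMIs, so each section was 1 replicate. Groups and replicate numbers are names from the labels and accession order. The titles number each section differently, but the sources used here do not state outright that each came from its own animal. If not, p-values measure only the spread between these samples, which may be technical.

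Genes were tested with edgeR 4.0.16 (quasi-likelihood F test, TMM factors, filterByExpr with a minimum count of 10, limma 3.58.1, R 4.3.3), with Benjamini-Hochberg adjustment over all genes at 0.05, and with DESeq2 1.42.0 as an alternative. On simulated data the model recovered most large changes where the spread was small, and none at the spread fitted here, so a gene that was not called is not shown to be unchanged. For shares, the two-sided exact permutation test over the 4 sections was used (Python 3.11.15), and intervals are 95% Clopper-Pearson intervals (SciPy 1.17.1). UMIs mark molecules, and the intervals cover counting error only. The members and gene lists were chosen with earlier results of these data known. Named genes are the members, other trypsinogen-like genes with at least 10 UMIs, of each role of a pathway list those with the 2 highest and 2 lowest log2 fold changes, reference enzymes set beside a member, and the 5 genes most like each target among those with a UMI in at least 1% of thinned spots of every section. Alternatives were other size factors, filters, spot sets, thinning to 500 UMIs, each section left out, and slide as a block.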

Additional observations from a re-analysis of the deposited data

How the results depend on the processing

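The count of genes called, 22, was 293 with DESeq2, 400 with library sizes in place of TMM factors, 3 with upper-quartile factors, 92 with library sizes summed without the digestive enzymes and 13 with slide as a block, an alternative chosen after seeing the data. Leaving out each section in turn gave 0 (without KO replicate 2, 18 at an unadjusted p under 0.05) to 16653 calls (without WT replicate 2), with the lone section of a group assumed to vary like the others. The causes were not tested. Ctrc kept its direction under all 14 alternatives (−4.88 to −1.89 on the log2 scale) and was called in 6 of them, and Prss1 stayed above 0 in all 14 (0.01 to 3.05), though without WT replicate 2 it was at −0.50 relative to the median gene. Prss3, at −0.01, turned positive with library sizes (1.93), upper-quartile factors (0.61), library sizes without enzymes (1.06), spots of at least 1000 UMIs (0.11), thinning (0.29) and slide as a block (0.087), and ran from −0.65 to 0.75 with each section left out. Try10 turned to 0.66 with library sizes. Gm10334 turned to −0.32 with DESeq2. With each section left out Gm10334 ran from −0.78 (without WT replicate 2) to 2.53 (without WT replicate 1), and Gm5771 from −0.19 to 1.54 without these same sections. The background-level gene 1810009J06Rik turned to −0.092 with DESeq2 and ran from −0.22 to 0.50 with each section left out, and Ehmt2 ran from −3.71 (without WT replicate 2) to 0.52 (without WT replicate 1). Of 39 alternatives of the 4 shares and ratios, 36 kept their direction. The trypsinogen and Ctrc shares did not overlap between the groups, so leaving out 1 section could not turn them. The count of 36 is thus no measure of stability. It includes Ctrc in spots of 50% or more reference enzymes, at 0.0136 and 0.0140 against 0.0198 and 0 per 100. Its groups overlapped there, on 4 and 0 Ctrc UMIs in the sections labelled KO. The exact test cannot pass 0.05 in this design, so it says nothing of stability. In spots of 50% or more reference enzymes the difference of the trypsinogen share, KO minus WT, was −0.18 per 100, or −0.38 without the spot of most UMIs (chosen after seeing the data), and that of Spink1 per 100 trypsinogen UMIs was 4.32. The median of Ctrc over spots was 0 in every section and gave no comparison. The labels give no replicate numbers that pair sections, so the only paired fit was that by slide. The lowest counts among the members were those of Try10 (91 UMIs in the section labelled WT replicate 2, 96 and 135 in those labelled KO) and Ctrc (127 and 185 in those labelled KO).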

Other observations

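Spots with under 100 UMIs, taken by that limit as off the tissue, were not part of any comparison above. Per 100 digestive enzyme UMIs in these spots, Prss1 was 0.116 and 0.0881 in the sections labelled WT and 1.43 and 1.31 in those labelled KO, without overlap. Prss2 was 2.36 and 1.03 against 1.12 and 0.851, and its groups overlapped.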
